A study of Rattus norvegicus with 24 samples.

Results

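The baseline gene expression program of the rat liver was described by comparing the livers of sham-exposed animals with the other tissues of sham-exposed animals. All samples came from Sprague-Dawley rats aged 7 months, and messenger RNA was sequenced as 1 library per sample. The study holds 24 libraries, of which 12 came from sham-exposed rats and 12 from rats labelled SAM-exposed. The 12 sham libraries were used here: 3 of liver (animals 13, 14 and 15), 3 of brain (13, 15 and 16), 3 of thymus (14, 15 and 17) and 3 of spleen (14, 15 and 17). No exposed library entered any value. The labels give no sex and no cell sorting, so each library is whole tissue, and fewer cells of a type cannot be told apart from less RNA per cell. Whether, for example, liver 15 and brain 15 came from 1 rat is not stated, and p-values measure the spread between these samples.

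The liver makes most proteins of the blood plasma, clears ammonia as urea, stores and releases glucose, makes bile acids and ketone bodies, and oxidizes and conjugates foreign compounds. Hepatocytes carry out most of this work, and their genes are kept active by a network of transcription factors that includes HNF4A, FOXA and C/EBP proteins. Sinusoidal endothelium, resident macrophages (Kupffer cells), vitamin A-storing stellate cells and bile duct cells (cholangiocytes) make up the rest of the organ. Enzymes are also zoned along the lobule, with urea synthesis and gluconeogenesis towards the portal side and much of drug oxidation towards the central vein.

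Library totals of the 12 sham samples ran from 13315104 to 20124738 counts, with 14833621, 18352731 and 15815238 in livers 13, 14 and 15. The liver libraries were dominated by few genes: 83 to 91 genes held the first 50% of liver counts, against 687 to 1099 genes in the other tissues, and 11364 to 11458 genes passed 1 raw CPM (counts of a gene scaled to a common library total) in liver against 13574 to 14232 elsewhere. Scaling by TMM (trimmed mean of M-values) gave the livers factors of 0.43 to 0.46 and the other libraries 1.18 to 1.48. Levels below are TMM-scaled CPM unless raw counts are named, and they carry no correction for gene length. All 12 hepatocyte markers listed for checking the label were higher in liver than in each other tissue, and their summed level was 411210 to 468560 CPM in liver and 70.9 to 460 CPM elsewhere. The summed level of 11 neuronal markers was 9711 to 10639 CPM in brain and 1.92 to 3.36 CPM in liver, and the summed level of 10 T cell markers was 4924 to 5518 CPM in thymus and 29.7 to 75.3 CPM in liver. The library of thymus 15 stood apart from thymus 14 and 17, with 8.18% of counts on mitochondrial genes against 3.64% and 2.95%, and with a summed level of 6 adipocyte markers of 591 CPM against 91.4 and 21.5 CPM.

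Of 32883 genes listed, 17204 passed the count filter, and most of those differed between liver and the other tissues. Against the mean of brain, thymus and spleen, each weighted alike, 6252 genes (36.3%) were higher and 6940 (40.3%) lower in liver at an adjusted p under 0.05 in edgeR's quasi-likelihood test. Against single tissues, 41.3% were higher and 40.1% lower than in brain, 36.1% higher and 41.1% lower than in thymus, and 34.9% higher and 41.2% lower than in spleen. With library totals in place of TMM, 2482 genes were higher and 12485 lower, so higher genes made up 16.6% of calls instead of 47.4%, and the median log2 difference over all genes moved from -0.25 to -1.82. Small differences therefore depend on the scaling, and the text concentrates on differences larger than this shift. A fit that treated the 9 other libraries as 1 group, which counts the spread between tissues as error, called 3744 genes higher and 3443 lower.

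Liver-enriched genes were defined as those called higher in liver in each of the 3 tissue comparisons, with a liver mean of at least 1 CPM and at least 4 times the highest mean of the other tissues. This held for 1484 genes (8.63% of those tested). Since the rule used these differences, they describe the set and are no test of it. The enriched genes took up 63.9%, 66.1% and 66.9% of raw counts in livers 13, 14 and 15 and 2.85 to 3.86% in the other libraries. No count at all was found in the 9 other libraries for 51 of them, and 382 were at least 100 times the highest other tissue. Brain was the highest other tissue for 565 of the genes, spleen for 462 and thymus for 457. The mirror rule, with each other tissue at least 1 CPM and at least 4 times the liver mean, found 763 liver-depleted genes (4.44%), which took up 0.0877 to 0.0944% of liver counts, 8.93 to 9.24% of brain counts, 4.89 to 5.55% of thymus counts and 2.97 to 3.25% of spleen counts. Every liver library lay above every other library for 1481 of the 1484 enriched genes, against 23.8% of all genes tested, and below every other library for all 763 depleted genes, against 19.6%. The fold just inside the enriched rule was 4.001 and the one just outside was 3.993. With library totals only, 816 genes remained enriched, all of them among the 1484, and the depleted set grew to 2528 genes and held all 763.

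**Figure D1:**
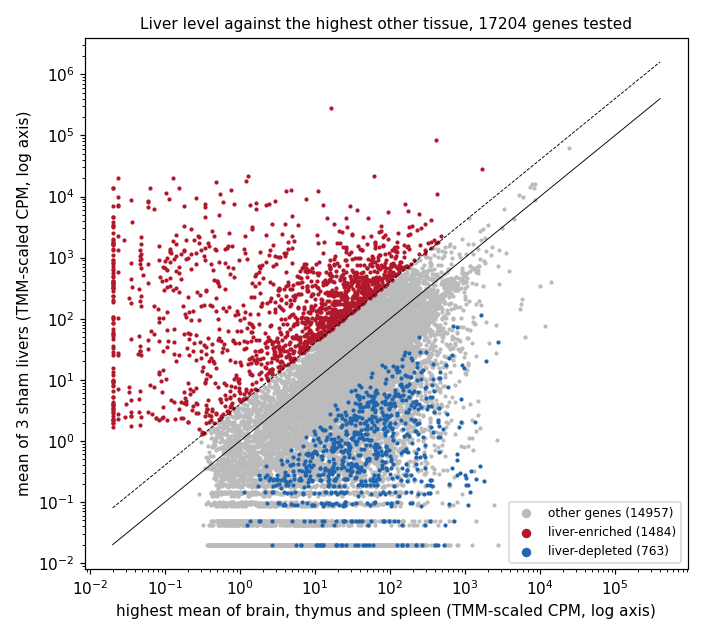
Mean level in the 3 sham livers (y axis) against the highest mean of brain, thymus and spleen (x axis), both in TMM-scaled CPM on log axes, with means under 0.02 drawn at 0.02; each point is 1 of 17204 genes. The solid line marks equal levels and the dashed line 4 times the other tissue; the 1484 liver-enriched genes lie above the dashed line, and the 763 liver-depleted genes lie far below equality.

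The 12 liver-enriched genes with the highest liver levels were mostly secreted plasma proteins. Alb, albumin, the main carrier and osmotic protein of plasma, read 272190, 273630 and 303320 CPM in livers 13, 14 and 15 and took 12.4%, 11.8% and 13.1% of their raw counts. It read 11.6, 9.22 and 8.59 CPM in the brains, 3.51, 44.9 and 0.317 CPM in thymus 14, 15 and 17, and 0.557, 0 and 0.0573 CPM in the spleens. The liver and other levels did not overlap, and the highest of the others was thymus 15, the library with the raised adipocyte markers; a link between these values was not tested. Alb was 17420 times the thymus mean, or 28834 times the highest other mean without thymus 15 (log2 difference to the mean of the others 16.45 ± 1.03 SE, adjusted p = 5.52e-09).

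Tf, transferrin, the iron carrier of plasma, read 73850, 83872 and 94333 CPM in the livers, 396 to 446 CPM in brain, 63.5 to 80.9 CPM in thymus and 110 to 158 CPM in spleen (9.08 ± 0.17 SE, adjusted p = 1.71e-14). Apoe, the apolipoprotein that directs lipoprotein remnants to their receptors, read 24240, 30655 and 30318 CPM in liver against 1651 to 1723 CPM in brain and 319 to 609 CPM in thymus and spleen, so that liver was 16.9 times brain (5.36 ± 0.13 SE, adjusted p = 3.98e-13). C3, the central complement component, read 20765, 23090 and 20687 CPM in liver and 17.02 to 71.9 CPM elsewhere (9.46 ± 0.17 SE, adjusted p = 1.21e-14). These 3 genes were thus well detected outside the liver, and their liver levels still stood 16.9 to 354 times above the next tissue.

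The other members of the 12 were close to absent elsewhere. Gc, the vitamin D-binding protein, read 21626 to 22010 CPM in liver and 0 to 1.43 CPM in the other libraries. Serpina1, the elastase inhibitor alpha-1-antitrypsin, read 15011 to 19788 CPM in liver and at most 1.49 CPM elsewhere. Mug1 (murinoglobulin, a rodent protease inhibitor), Crp (C-reactive protein), Ahsg (fetuin-A, a mineral-binding glycoprotein) and Ttr (transthyretin, the thyroid hormone and retinol-binding protein carrier) had liver means of 20348 ± 3260, 17139 ± 1600, 13994 ± 2041 and 13893 ± 2160 CPM (SD, n = 3), and none of them passed 1 CPM in any other library. Ttr, which choroid plexus is known to express, read 0 to 0.149 CPM in the 3 brain libraries. Cyp2c12, a cytochrome P450 known in rats as a female-predominant steroid hydroxylase, read 13313, 14721 and 13814 CPM in liver and had 1 count in the 9 other libraries together. LOC100912485, described in the table as alcohol sulfotransferase-like, read 17613 to 22129 CPM in liver and had 2 counts elsewhere.

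**Figure D2:**
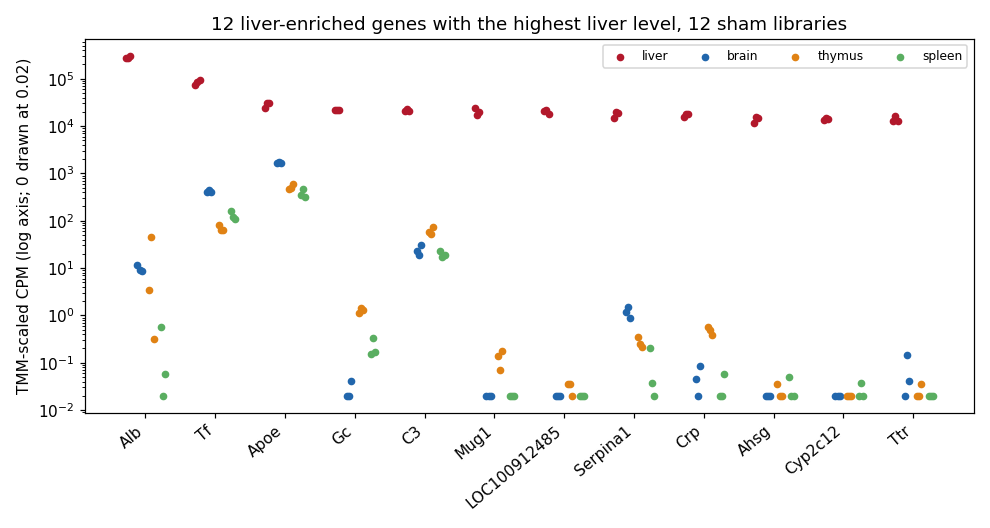
TMM-scaled CPM (log axis, with 0 drawn at 0.02) of the 12 liver-enriched genes with the highest liver level, in each of the 12 sham libraries; each point is 1 library, coloured by tissue. All liver points lie at or above 11725 CPM; Tf, Apoe and C3 are the genes well detected in every other tissue, and 1 thymus point for Alb stands above the other 2.

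The promoters of these genes were searched for short motifs of hepatocyte transcription factors. Sequences came from RefSeq on the GRCr8 assembly, while the counts rest on build rn6, so only gene symbols link them. A promoter entry, from 250 bases before to 50 bases after the start, was matched by symbol for 1032 of 1478 liver-enriched symbols and for 74 of the 100 with the highest liver level. Exact matches on both strands were counted for CAAAGTCCA (HNF4), TGTTTAC (FOXA) and TTGCNNAA (C/EBP), with N any base. At least 1 of the 3 was present in 11.4% of the 11566 tested genes with a promoter entry, 16.1% of the enriched, 10.8% of the depleted and 35.1% of the top 100, and in 14.1% of all 27457 promoters with a symbol. The C/EBP motif was in 9.10% of the tested, 12.02% of the enriched, 9.29% of the depleted and 28.4% of the top 100, and in 10.5% of all promoters. The FOXA motif was in 2.31%, 3.78%, 1.64% and 9.46% of the same 4 groups and in 3.76% of all promoters. The HNF4 motif was rare, in 0.372% of the tested, 1.36% of the enriched (14 promoters), none of the 549 depleted, 1 of the top 100 and 0.375% of all promoters. A match describes letters and does not show binding. Of the 12 genes above, LOC100912485 had no promoter entry, and Apoe, Gc, Serpina1 and Ttr showed none of these motifs in the 250 bases before the start. The 4 genes printed next were picked for showing a motif, and Cps1 is not among the 12. The 160 bases that end just before the start are printed for 4 genes that show 1 of these motifs each, 5′ to 3′ on the gene's strand, with motif matches in capitals.
Alb, chr14:17906980-17907139, minus strand: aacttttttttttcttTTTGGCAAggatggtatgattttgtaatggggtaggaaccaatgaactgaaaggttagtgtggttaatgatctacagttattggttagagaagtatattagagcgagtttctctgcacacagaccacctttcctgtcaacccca
C3, chr9:2201340-2201499, minus strand: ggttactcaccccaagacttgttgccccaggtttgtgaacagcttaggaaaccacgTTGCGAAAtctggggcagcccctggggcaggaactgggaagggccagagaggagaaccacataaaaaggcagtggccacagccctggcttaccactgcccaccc
Crp, chr13:87693902-87694061, plus strand: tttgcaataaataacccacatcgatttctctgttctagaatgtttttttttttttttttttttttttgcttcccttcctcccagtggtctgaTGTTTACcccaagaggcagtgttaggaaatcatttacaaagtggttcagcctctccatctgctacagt
Cps1, chr9:76063703-76063862, plus strand: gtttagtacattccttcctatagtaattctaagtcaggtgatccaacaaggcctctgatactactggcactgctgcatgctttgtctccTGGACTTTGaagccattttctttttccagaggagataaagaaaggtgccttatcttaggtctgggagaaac
The Alb stretch holds the C/EBP motif on the opposite strand, C3 the C/EBP motif, Crp the FOXA motif, and Cps1 the HNF4 motif on the opposite strand.

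Plasma carriers and coagulation genes had the highest median ratios to the next tissue of all lists. All 31 carriers and inhibitors tested were higher in liver than the mean of the others (36.3% of all genes were), 30 were liver-enriched, and the median member was 17093 times the highest other tissue, where the median of all genes was 0.45 times; tissues with under 3 counts were set at 3 counts in these ratios. Lrg1, a leucine-rich glycoprotein that neutrophils also make, was the exception, with 40.9 ± 15.4 CPM in liver and 117 to 162 CPM in spleen, and with library totals its difference was -0.34 and not called. Of 23 coagulation genes, 22 were higher and all 22 were enriched: Kng1 (kininogen) had 8441 ± 886 CPM, the fibrinogen chains Fga, Fgg and Fgb 8056 ± 590, 8049 ± 184 and 7134 ± 625 CPM, and Plg (plasminogen) 7141 ± 783 CPM. F8, factor VIII, which endothelial cells are known to make, went the other way, with 16.98, 17.6 and 17.4 CPM in liver and 39.4 to 67.1 CPM in all other libraries (-1.40 ± 0.13 SE, adjusted p = 4.59e-07).

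Complement was less uniform. Of 26 genes tested, 24 were higher, 1 was lower and 18 were enriched. Cfi, a protease that inactivates complement, had 2544 ± 74.7 CPM in liver, and C8a, a chain of the membrane attack complex, 2362 ± 12.97 CPM; neither passed 0.966 CPM elsewhere. The macrophage-made C1qa, C1qb and C1qc were higher than the mean of the others but lower than spleen: C1qa read 80.9, 213 and 212 CPM in liver and 268 to 499.7 CPM in spleen. C1qa was not called without liver 14, liver 15 or spleen 14 (adjusted p 0.0778 to 0.131), C1qb not without liver 14 or 15 (adjusted p 0.0884 and 0.071), and all 3 were called lower with library totals. C7 was lower in liver (6.31 ± 0.687 CPM against 109 to 263 CPM in thymus and spleen), and Cfd, adipsin, was not called (15.2 to 47.4 CPM in liver, adjusted p = 0.0609; 0.00757 without liver 13). All 27 lipoprotein genes were higher and 24 enriched. After Apoe came Apoh with 9507 ± 151 CPM, Apob, the structural protein of very-low-density lipoprotein, with 8518 ± 1363 CPM, and Apoc3, which slows lipoprotein lipolysis, with 7619 ± 7.05 CPM; none passed 3.74 CPM in another library.

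Bile acid and amino acid genes were nearly as restricted. Of 24 bile acid genes 23 were higher and enriched, among them Slc27a5 and Baat, which activate and conjugate bile acids, with 2743 ± 501 and 1735 ± 114 CPM, and Abcb11, the export pump, with 1800 ± 57.3 CPM. The uptake carrier Slco1b2 read 2162, 2753 and 2808 CPM in the livers and had no count elsewhere, which makes it at least 54857-fold higher when 3 counts over a tissue's 3 libraries are taken as the floor, or at least 31919-fold without spleen 15, where the floor rests on fewer counts. Cyp7b1, an oxysterol hydroxylase, read 4.56 to 4.96 CPM in liver, 18.4 to 23.1 CPM in brain and 3.72 to 4.68 CPM in thymus and spleen. It was called lower than brain and than the mean of the others, but not lower than thymus or spleen. All 39 urea and amino acid genes were higher and 35 enriched. Mat1a, which makes S-adenosylmethionine, had 7531 ± 282 CPM, and Cps1, the entry enzyme of the urea cycle, 7435 ± 717 CPM. Hpd, of tyrosine breakdown, had 7317 ± 1089 CPM, and Ass1, a later urea cycle enzyme, 4398 ± 393 CPM. Got1, Amt, Gldc and Glul were the 4 not enriched; Glul, glutamine synthetase, read 996 to 1260 CPM in liver, which overlapped 1156 to 1392 CPM in brain. With library totals Glul and Got1 were called lower.

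In many families of enzymes and transporters 1 form was high in liver while forms known from other tissues were low. Of 27 such other forms in 16 families, 17 were lower, 7 were not called and 3 were higher. Among all genes tested, 40.3% were lower and 36.3% higher. Of 15 families with a liver form, that form was higher in liver in 14 and not called in 1, phosphofructokinase, where Pfkl read 62.2 to 72.9 CPM in liver and 65.9 to 121 CPM elsewhere (adjusted p = 0.0518). Pklr had 580 ± 53.7 CPM in liver and at most 3.19 CPM elsewhere, while both gene entries for Pkm, the form of most other tissues, were liver-depleted, the larger with 11.96, 17.9 and 21.7 CPM in liver and 212 to 960 CPM elsewhere.

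The same held for sugar transport. Slc2a2, the low-affinity glucose transporter, had 929 ± 91.7 CPM in liver and at most 0.143 CPM elsewhere; Slc2a1 and Slc2a3 were lower in liver, and Slc2a4 was not called (0 to 0.443 CPM in liver; 52.0 CPM in thymus 15 and at most 4.67 CPM in the other libraries). In glycogen metabolism Gys2 and Pygl were higher and Gys1, Pygb and Pygm lower. In amino acid metabolism Mat1a, Arg1, Tdo2 and Cps1 were higher and Mat2a, Arg2 and Cad lower; Ido1 was not called. Mat2a, the form of most other tissues, was liver-depleted, with 37.3 to 59.6 CPM in liver and 162 to 332 CPM elsewhere.

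Among the families that follow, some split in this way and others did not. Ido2 was enriched beside Tdo2, and Fabp7 and Fabp5 were higher beside Fabp1; Fabp7 read 65.6, 72.5 and 116 CPM in liver and 15.5 to 28.7 CPM in brain. Fabp3, Fabp4, Cpt1b and Cpt1c were not called, while Cpt1a was enriched (252 ± 121 CPM). Ldha was 3.68 times the next tissue and Ldhb was depleted, with 2.66 to 4.06 CPM in liver. G6pc was enriched and G6pc3 lower, Fbp1 was enriched, Eno1 was higher by 0.51 ± 0.10 (SE) on the log2 scale with Eno2 and Eno3 lower, Pfkm and Pfkp were lower, and of the creatine kinases, for which the liver has no form of its own, Ckb was lower and Ckmt1 had no count in liver. With library totals Eno1 and Fabp5 were called lower, by -1.08 and -1.11 on the log2 scale, and Fabp5 lost its call without liver 13 (adjusted p = 0.0762) or spleen 14 (adjusted p = 0.114).

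**Figure D3:**
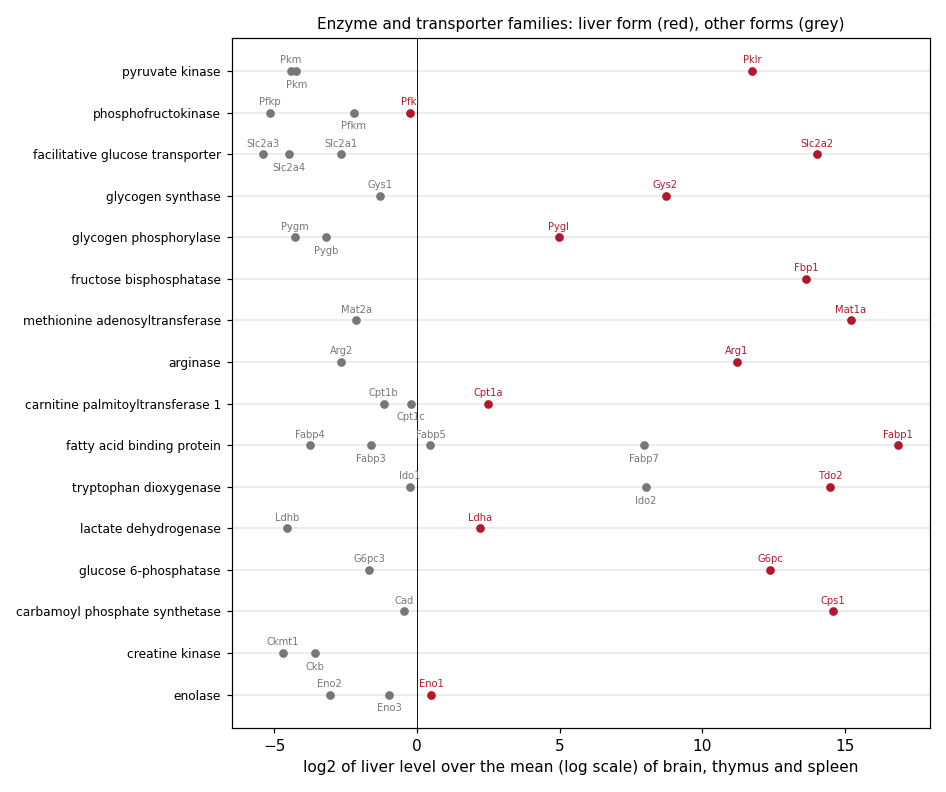
Log2 of the liver level over the mean, on the log scale, of brain, thymus and spleen for the members of 16 enzyme and transporter families, with tissues under 3 counts set at 3 counts; red points are the forms listed as liver forms and grey points the other forms. Red points lie to the right of 0 in every family that has one except phosphofructokinase; most grey points lie to the left, with Fabp5, Fabp7 and Ido2 to the right.

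Fuel genes showed 1 depletion among many enriched members. Of 22 glucose and glycogen genes 21 were higher and 19 enriched, with Pck1, Sord and Fbp1 among the highest; Ppp1r3g, a glycogen-targeting phosphatase subunit, was not called (0.443 to 1.60 CPM in liver, adjusted p = 0.991). Pck1, the controlling enzyme of gluconeogenesis, read 937, 2868 and 2751 CPM in livers 13, 14 and 15, no count in brain, and 16.6, 115 and 0.212 CPM in thymus 14, 15 and 17; it was 49.9 times the thymus mean and 261 times the highest other mean without thymus 15. Of 32 ketone and fatty acid genes 31 were higher and 29 enriched, with Fabp1 at 6322 ± 704 CPM, Acsl1, which activates fatty acids, at 5670 ± 363 CPM and Slc27a2, a fatty acid transporter, at 2229 ± 148 CPM. Oxct1, which tissues need to use ketone bodies, was liver-depleted: it read 4.58, 4.95 and 4.08 CPM in the livers against 223 to 228 CPM in brain, 124 to 150 CPM in thymus and 84.4 to 87.2 CPM in spleen (-4.93 ± 0.11 SE, adjusted p = 7.70e-14). The livers lay below all other libraries for this gene.

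Drug-metabolizing genes were high as a group but varied in breadth. Of 31 cytochrome P450 genes 30 were higher and 27 enriched, and their summed level was 43522, 59010 and 58809 CPM in livers 13, 14 and 15 and 135 to 207 CPM elsewhere. Cyp2e1, which oxidizes ethanol and small solvents, read 8344, 13739 and 14748 CPM, Cyp1a2, which oxidizes caffeine and aromatic amines, 2830, 4182 and 4700 CPM, and Cyp2c6v1 3028, 4446 and 4168 CPM with no count elsewhere. Liver 13 was the lowest of the 3 for each of these genes. Cyp1b1, known mainly outside the liver, was liver-depleted, with 0 to 0.591 CPM there and 66.5 to 68.9 CPM in spleen. Of 40 conjugation and detoxification genes 39 were higher and 34 enriched, led by Mgst1 (6020 ± 274 CPM), Ces1f (4939 ± 57.5 CPM), Adh1 (3601 ± 235 CPM) and Aldh2 (2882 ± 435 CPM). Nat2 was not called (1.62 to 3.30 CPM in liver, adjusted p = 0.624). Members of the Cyp2c, Cyp3a and Ugt2b families are near-identical copies, and Cyp2c7 was listed at 0 while a Cyp2c7-like gene, LOC100361547, read 7010 to 11380 CPM in liver, so the split between family members is uncertain.

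Rat liver is known for large sex differences in P450 genes, set by the pattern of growth hormone release. On the list of sex-biased genes, all 13 tested were higher in liver. The female-predominant Cyp2c12 and A1bg had 13949 ± 713 and 8949 ± 717 CPM, Prlr, the prolactin receptor, 1944 ± 337 CPM, and Akr1b7, an aldo-keto reductase, 2287 ± 238 CPM. The male-predominant Slco1a1, an organic anion transporter, had 488 ± 55.6 CPM in liver and no count elsewhere, and of 2 gene entries for the male-predominant Cyp4a2, whose reads may be split between them, the larger read 793, 871 and 1087 CPM in liver and the smaller 44.2, 51.7 and 74.0 CPM. The male-predominant Cyp2c11 and Cyp3a2 had 6 and 10 counts in all 12 libraries together and did not pass the filter, and Cyp2c13 had 1.73 ± 0.191 CPM in liver. A1bg, for example, read 8442, 8636 and 9769 CPM in livers 13, 14 and 15. The labels do not give the animals' sex.

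The transcription factors of the list followed the same direction, at lower levels. Of 33, 30 were higher, 2 lower and 26 enriched, and the median member was 22.8 times the next tissue. Hnf4a, the nuclear receptor at the centre of the hepatocyte network, read 1301, 1436 and 1191 CPM in liver and at most 0.564 CPM elsewhere. Creb3l3, Srebf1 and Cebpa had 961 ± 82.7, 757 ± 51.5 and 504 ± 29.2 CPM, and Srebf1, the regulator of fat synthesis, was broadly present elsewhere (51.7 to 114 CPM). Rxra, Mlxipl, Xbp1 and Nr1i2 (the xenobiotic receptor PXR) had 231 to 444 CPM and were enriched. So were Nr1h4 (the bile acid receptor FXR), Nr0b2, Nr5a2, Nr2f6, Prox1, Esr1 and Ppara, with liver means of 58.1 to 169 CPM, and Onecut1, Onecut2, Foxa1, Foxa2, Foxa3, Gata4, Cebpb, Tbx3 and Nr1i3, with 25.6 to 83.7 CPM. Nr1h3, Hhex, Gata6 and Nr2f2 were higher than the mean of the others but not enriched, Nr2f2 with 34.4 ± 2.50 CPM in liver being 0.944 times spleen. Cebpd was not called (3.65 to 5.45 CPM, adjusted p = 0.946). Nr2f1 was among the lower ones, with 1.18 to 2.16 CPM in liver and 62.0 to 85.7 CPM in brain.

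Hormone and iron genes gave further exceptions. Of 30 hormone, growth factor and receptor genes 28 were higher, 1 was lower and 25 were enriched; Lifr, Igfbp4, Thrsp and Prlr led the list, with liver means of 4386 ± 323, 3292 ± 497, 3165 ± 357 and 1944 ± 337 CPM. Thrsp, a regulator of fat synthesis, read 503 CPM in thymus 15 and at most 31.5 CPM in the other 8 libraries, so it was 17.8 times the thymus mean and 162 times the highest other mean without that library. Fst was lower (0 to 0.591 CPM; not called without liver 14 or 15, adjusted p = 0.0789 and 0.063). Of 20 iron and metal genes 17 were higher and 13 enriched. Hamp, hepcidin, the hormone that blocks iron export, read 1774, 1443 and 1376 CPM in liver and at most 0.107 CPM elsewhere. Selenop, the selenium carrier, had 5182 ± 667 CPM, Tmprss6 1380 ± 113 CPM and Fth1, ferritin heavy chain, 2900 ± 210 CPM, which was 1.68 times spleen. Slc11a2, with 57.8 to 61.1 CPM in liver, was lower than thymus (186 to 244 CPM) and higher than spleen (25.5 to 29.6 CPM), and Tfrc and Bmp6 were not called. With library totals the log2 difference of Fth1 fell from 1.62 to 0.04 and was no longer called (adjusted p = 0.693), and Slc11a2 lost its call without liver 13 (adjusted p = 0.0706) or liver 15 (adjusted p = 0.0836).

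Most Kupffer and sinusoidal endothelial markers were higher in liver than in brain and thymus, and fewer than in spleen, which also holds macrophages and sinusoids. Of 14 Kupffer markers 13 were higher than the mean of the others, though the list median turned from 1.47 to -0.0838 with library totals. Against spleen alone, 3 were higher and 8 lower, where 34.9% of all genes were higher and 41.2% lower. Clec4f, a lectin that marks Kupffer cells in rodents, read 166, 422 and 429 CPM in livers 13, 14 and 15 and at most 0.636 CPM elsewhere, while C1qc and Cd5l had liver means of 143 ± 60.5 and 141 ± 72.9 CPM, and Csf1r was not called (45.3 to 144 CPM in liver, adjusted p = 0.846; higher at 0.0364 without liver 13). Clec4f, Vsig4 and Marco were the 3 enriched members. Of 12 sinusoidal endothelial markers 11 were higher and 3 enriched (Lyve1, Oit3 and Clec4g). Against spleen alone 6 were higher and 4 lower, beside the same 34.9% and 41.2% of all genes. Lyve1 read 97.0, 143 and 173 CPM in liver and 0.992 to 4.95 CPM elsewhere. Fcgr2b and Kdr, with 192 ± 72.9 and 151 ± 49.3 CPM, were 1.54 and 1.34 times spleen, and Dnase1l3 was 0.265 times spleen.

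Of 14 stellate markers 9 were higher, 4 lower and 4 enriched, where 36.3%, 40.3% and 8.63% of all genes were. The retinoid gene Lrat and the secreted Ecm1 and Colec10 were among the enriched ones, Ecm1 with 338, 306 and 299.8 CPM in liver and 4.46 to 70.9 CPM elsewhere. Markers of contractile and fibrous cells were the lower ones: Acta2, smooth muscle actin, read 7.24 to 8.62 CPM in liver and 66.2 to 103 CPM in thymus and spleen, and Col1a1, Des and Pdgfrb were lower too, while Col3a1 was higher (143 to 248 CPM; a log2 difference of -0.0023 with library totals) and Dcn was not called. Of 7 cholangiocyte markers 3 were higher and 2 lower, near the 36.3% and 40.3% of all genes, and the list median turned from 0.28 to -1.29 with library totals. Epcam had 16.8 ± 1.72 CPM against 42.2 to 47.6 CPM in thymus, Spp1 4.20 ± 2.42 CPM, Sox9 and Krt7 were lower, Spp1 lost its call without liver 15 (adjusted p = 0.0971) and Krt7 without brain 15 or 16 (adjusted p = 0.0906 and 0.0892), and Cftr and Krt19 were not called.

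Markers of lymphoid, granulocyte and neural cells were mostly lower in liver than the mean of the others. All 10 T cell markers were lower (Lck 2.07 to 5.71 CPM in liver against 1023 to 1238 CPM in thymus), and so were 5 of 8 B cell, 4 of 7 thymocyte, 5 of 8 granulocyte, 10 of 11 neuronal and 5 of 8 glial markers, against 40.3% of all genes. Of the rest, Cd1d1 was higher and Gfap was not called, and the other 11 were not called and had under 3 counts in at least 1 tissue. Against brain alone, 8 of the 10 T cell and 7 of the 8 B cell markers were higher in liver and none lower. Of all genes, 41.3% were higher and 40.1% lower in that comparison. Globin genes were far below spleen: Hbb read 304 to 382 CPM in liver, 7176 to 15039 CPM in spleen and 10.01 to 64.1 CPM in brain and thymus. One marker of another cell type that was high in liver was Cidec, a lipid droplet protein on the adipocyte list. It had 132 to 135 CPM in liver while Adipoq, Plin1 and Lep read at most 0.127 CPM there. Another was Cpa1, carboxypeptidase A1, a digestive enzyme of pancreatic acinar cells, which read 781, 858 and 686 CPM in the livers and at most 0.506 CPM elsewhere (adjusted p = 3.32e-14). The other acinar genes did not move with it: Ctrb1 and Pnlip had no count in the livers, Cela1 read 3.84 to 4.81 CPM, and Prss1, Cpb1, Try10 and Cela2a had 27, 22, 11 and 6 counts in all 12 libraries together.

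Fetal genes were mixed, and dividing-cell genes were low against the mean of the others. Of 7 fetal genes tested, 2 were higher and enriched, 1 was lower and 4 were not called, where 36.3% of all genes were higher and 40.3% lower. Afp, the fetal counterpart of albumin, read 29.4, 25.6 and 22.2 CPM in liver and at most 0.281 CPM elsewhere, and Igf2bp3 18.5 to 24.5 CPM; Igf2 was lower and Gpc3, Dlk1, Lin28b and Hmga2, each at most 1.17 CPM in liver, were not called. All 15 proliferation genes were lower than the mean of the others, and all 15 were lower than thymus: Pcna, the replication clamp, read 28.1 to 34.6 CPM in liver, 27.4 to 31.0 CPM in brain and 253 to 287 CPM in thymus. Against brain alone 8 of the 15 were higher and 1 lower, where 41.3% and 40.1% of all genes were. All 13 cytoskeletal genes were lower, Actb (501 to 696 CPM) against 729 to 765 CPM in brain and 2604 to 4062 CPM in thymus and spleen. Of 16 antigen presentation genes 15 were lower than the mean but 14 were higher than brain. Housekeeping genes were no flat reference: 9 of 14 were higher and 4 lower, against 36.3% and 40.3% of all genes. Their list median turned from 1.10 to -0.481 with library totals, and Sdha, a subunit of succinate dehydrogenase, was 2.46 times the next tissue.

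The liver-depleted genes with the highest levels elsewhere came from brain and lymphoid tissue alike. Scd2, a desaturase of other tissues than liver, read 43.1, 22.1 and 60.98 CPM in the livers and 328 to 2866 CPM elsewhere (-4.41 ± 0.28 SE, adjusted p = 6.53e-09). Cyfip2, an actin regulator, had 20.6 ± 2.31 CPM against 326 to 1981 CPM, and Coro1a, a leukocyte actin-binding protein, 15.4 ± 1.63 CPM against 67.7 to 1008 CPM. Thy1, a surface protein of neurons and rodent T cells, read 0, 0.380 and 0.584 CPM in liver, 672 to 1344 CPM in brain and thymus and 11.1 to 13.4 CPM in spleen. Ndrg4 had under 1 CPM in liver and 1513 to 1632 CPM in brain, but was also low in thymus (2.11 to 3.35 CPM) and spleen (2.74 to 3.04 CPM). Tubb5 (105 to 121 CPM) and Chd3 (68.8 to 88.0 CPM) were the least extreme, with the lowest other tissue 4.34 and 4.61 times the liver mean.

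**Figure D4:**
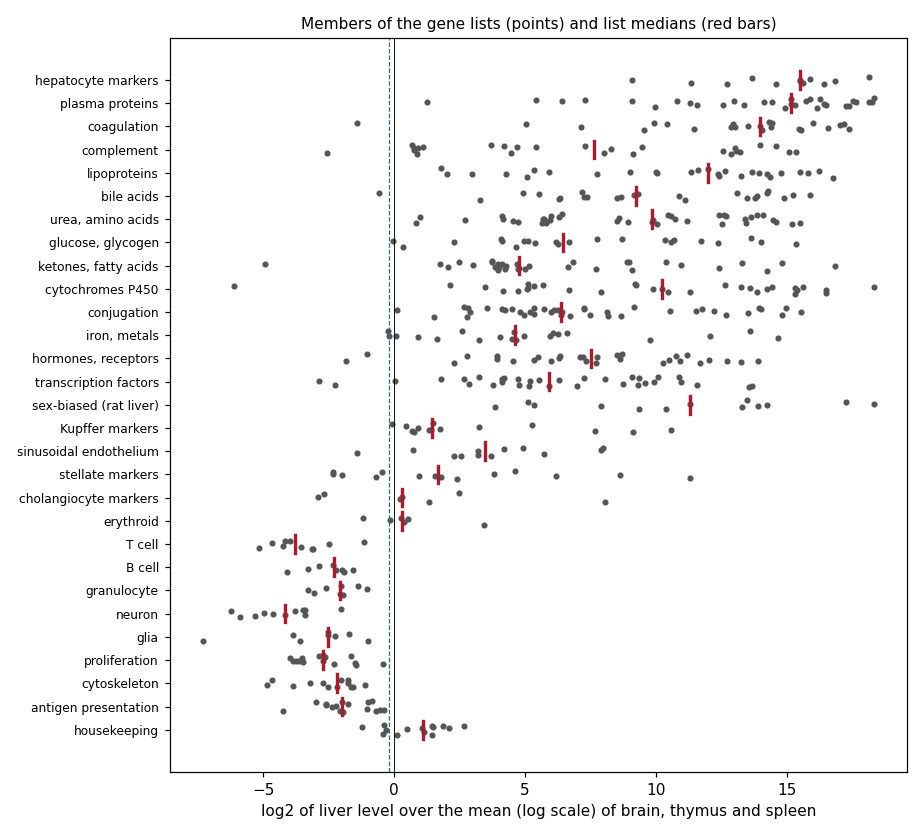
Members of 29 gene lists (points) by the log2 of their liver level over the mean, on the log scale, of brain, thymus and spleen, with tissues under 3 counts set at 3 counts; red bars are list medians, the solid line marks no difference and the dashed line the median of all genes tested. Lists of hepatocyte functions lie to the right, lists of lymphoid, neuronal, dividing-cell and cytoskeletal genes to the left, and of the lists drawn the Kupffer, stellate, cholangiocyte, erythroid and housekeeping medians lie nearest to 0, all but the stellate one turning below 0 with library totals.

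The 3 livers were much alike in the enriched genes, with a few large differences. Among the 1333 enriched genes with at least 10 CPM, the median ratio of the highest to the lowest liver was 1.22, against 1.20 for 7463 other genes at that level; 177 varied at least 1.5 times, 44 at least 2 times and 13 at least 3 times. Those that varied most differed in which liver stood out. Cyp2b2, a P450 known to be induced by phenobarbital-type compounds in rats, read 2.66, 68.2 and 6.71 CPM in livers 13, 14 and 15, with no count in any other tissue. Pnpla3, a lipid droplet hydrolase, read 75.2, 47.9 and 15.3 CPM and was lowest in liver 15, where A2ml1 was highest (11.1, 12.2 and 76.2 CPM). Abcg8, a sterol exporter, read 6.94, 31.3 and 43.2 CPM and Marco, a macrophage receptor, 16.98, 81.2 and 83.7 CPM, both lowest in liver 13.

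Liver 13 also stood apart in some of the cell type and zone sums. The summed level of the 14 Kupffer markers was 720 CPM in liver 13 against 1802 and 1931 CPM in livers 14 and 15, and that of the 12 endothelial markers was 572 against 861 and 1082 CPM, while the 14 stellate markers summed to 1365, 1215 and 1168 CPM. Of 14 pericentral genes 13 were higher than the mean of the other tissues and 10 enriched, and of 14 periportal genes 14 and 13. The pericentral genes summed to 17019, 25901 and 27423 CPM, and the periportal ones to 21580, 24545 and 23043 CPM. Liver 13 was lowest for both, with the larger gap in the pericentral sum. It was also lowest for the plasma protein sum (554610, 586930 and 629760 CPM), but the order of livers 13 and 14 there depends on the scaling. The TMM factors were 0.4566, 0.4298 and 0.4335, and Alb, the largest member, took 12.4%, 11.8% and 13.1% of raw counts. Not every list followed: the conjugation and detoxification sum was lowest in liver 15 (43975, 45603 and 40762 CPM). A few high genes, such as the P450 gene Cyp2e1, can carry such sums. Lists can share genes, so the pericentral and P450 gaps are not separate observations. Of the 177 enriched genes that varied at least 1.5 times, liver 13 lay farthest from the median, below it, in 67 and above it in 25. For liver 14 these counts were 1 below and 25 above, and for liver 15 they were 25 below and 34 above. Gstp1, a glutathione transferase that adult rat hepatocytes normally hold low, read 794 CPM in liver 13 and 51.0 and 55.7 CPM in livers 14 and 15; its ratio to spleen was 2.37 with liver 13 and 0.42 without it (adjusted p = 0.0258 with all livers, and it was called lower at an adjusted p of 2.3e-07 without liver 13). Share of mitochondrial counts was 8.07% in liver 13 and 6.07% and 5.8% in the others; its part in these differences was not tested.

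**Figure D5:**
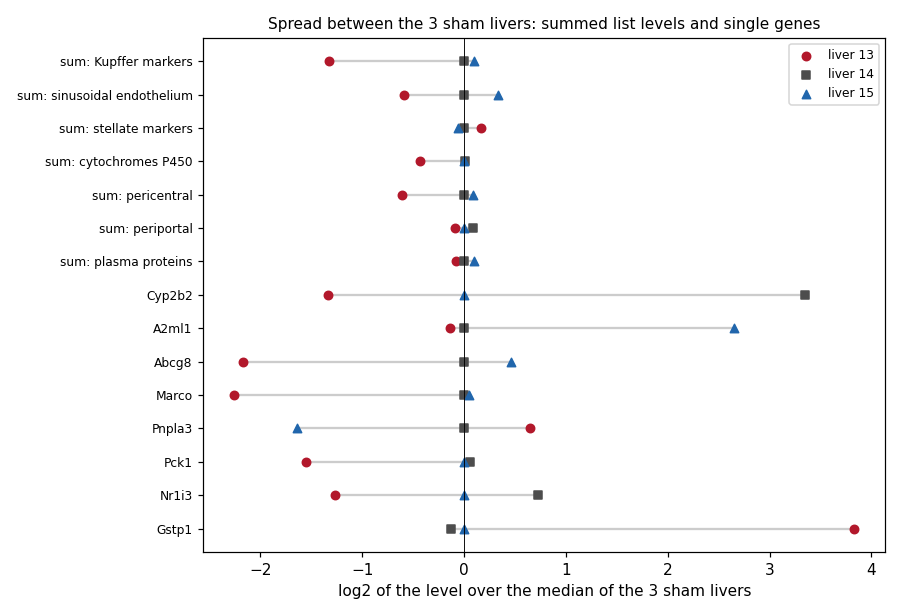
Log2 of the level in each of the 3 sham livers over the median of the 3, for summed levels of 7 lists (top) and for 8 single genes (bottom); symbols mark livers 13, 14 and 15. Liver 13 lies lowest for every sum drawn except the stellate one and highest for Gstp1, liver 14 is highest for Cyp2b2, and liver 15 is lowest for Pnpla3.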

How the data were processed

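Messenger RNA of 12 sham samples was sequenced as TruSeq stranded mRNA libraries from RNeasy-extracted RNA, per the labels' protocols. Reads were handled with STAR 2.2.1 and build rn6, per the submitters' processing notes; which program counted the reads, whether it used strand and which gene models it took are not given, so antisense and overlapping genes and near-identical copies are uncertain. The deposited table holds raw whole-number read counts per gene for 32883 genes, of which 47 have no symbol.

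From these counts, genes were kept by filterByExpr (17204 of 32883), scaled by TMM and fitted with edgeR 4.0.16 (R 4.3.3) as 1 quasi-likelihood model of 4 tissues, with Benjamini-Hochberg adjustment over all genes and a threshold of 0.05. Liver was set against the mean of the 3 other tissues and against each of them. DESeq2 1.42.0, other scalings, other filters, a replicate block and leaving out each library were alternatives. On simulated counts with 200 changed genes, the fit recovered 34% at 1.5-fold, 94% at 2-fold and 98% at 4-fold. Ratios set tissues under 3 counts at 3 counts over the tissue's 3 libraries, and cover counting error only. Named genes are the 12 highest liver-enriched and 8 highest liver-depleted, the top 4 of each list and members called against it, all isoenzymes and transcription factors, and the 6 most variable enriched genes; some others, such as Gstp1, Fgb, the C1q genes, Got1, Amt, Gldc, Glul, Dnase1l3, Gfap, Cyp4a2, Slco1a1 and Sdha, were added after their values were seen, and some items are not reported here. The gene lists and comparisons were chosen with earlier results of these data known. Lists held 611 symbols, of which 571 matched. Promoter sequences are RefSeq's, build GRCr8.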

Additional observations from a re-analysis of the deposited data

How the results depend on the processing

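Scaling moved the results most. With library totals only, 2482 genes were higher and 12485 lower than the mean of the others, 3196 and 11322 against brain, 2544 and 12546 against thymus, and 2445 and 12238 against spleen, with 816 enriched and 2528 depleted genes; 2707 calls changed direction. The 2-group fit called 3744 higher and 3443 lower, a 2-fold rule gave 2625 enriched and 1449 depleted genes, and an 8-fold rule 976 and 388. DESeq2 gave 1385 and 780, no filter 1501 and 776, and the replicate block 1484 and 765. Equal numbers in different tissues correlated at -0.024 to 0.201 and unequal numbers at -0.241 to 0.163. The labels do not say that equal numbers are the same rat, so the main fit took no pairs. Leaving out 1 library gave 1341 to 1512 enriched and 744 to 914 depleted genes, the extremes without spleen 14 (1341 and 914). With library totals the list medians turned to -0.0838 (Kupffer), -1.29 (cholangiocyte), -1.26 (erythroid) and -0.481 (housekeeping). Of 3861 recomputed values of named genes, 47 changed sign. With library totals these were Bmp6 -1.502, C1qa -0.901, C1qb -0.841, C1qc -0.689, Cebpd -1.54, Cfd -0.819, Cftr -1.32, Col3a1 -0.00229, Eno1 -1.08, Fabp5 -1.11, Glul -0.739, Got1 -0.582, Gstp1 -0.0217, Hbb -1.06, Krt19 -1.29, Lin28b -0.447, Lrg1 -0.336, Nat2 -1.44, Spp1 -0.256, Akr1b10 -0.0818 and RT1-A2 -0.0552. With RLE scaling and DESeq2, Bmp6 gave -0.0225 and -0.0218 and Cebpd -0.0644 and -0.0667; with the block, Cebpd gave -0.115, Cftr -0.0193 and Gstp1 -0.00992. Leaving out 1 library in turn moved the log2 difference across 0 for Akr1b10 -1.22 to 1.99, Bmp6 -0.251 to 0.278, Cebpd -0.124 to 0.175, Csf1r -0.425 to 0.282, Fabp3 -1.86 to 0.232, Gstp1 -0.977 to 2.02, Lin28b -3.13 to 1.54, Nat2 -0.154 to 0.386, Ppp1r3g -0.502 to 0.477, Tfrc -0.411 to 0.0321 and Ubd -2.02 to 4.90. The cause of these changes was not tested.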

Other observations

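Genes outside the lists were also high in liver. These were chosen after their values were seen. Pigr, the receptor that carries IgA into bile, read 8824, 9589 and 9090 CPM in livers 13, 14 and 15, and Cat, the peroxisomal catalase, read 7498, 7408 and 7484 CPM and was 46.9 times the next tissue. Uox, urate oxidase, read 2003, 2659 and 2072 CPM, and Gulo, the last enzyme of vitamin C synthesis in rats, 1832, 2400 and 2260 CPM. Of the 1484 enriched genes, 153 had no symbol or a clone or LOC name.

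Some genes differed widely between single livers or between animal numbers. In livers 13, 14 and 15, Ubd read 83.1, 0.507 and 0.146 CPM, Akr1b10 50.7, 3.80 and 1.90 CPM, and Dusp15 0, 29.3 and 25.5 CPM. RT1-A2, a class I histocompatibility gene, read 57.6, 60.9 and 322 CPM in livers 13, 14 and 15. It read 2.42, 13.4 and 2.65 CPM in brain 13, 15 and 16, 31.9, 134 and 151 CPM in thymus 14, 15 and 17, and 62.5, 266 and 271 CPM in spleen 14, 15 and 17. It was the 1 gene of 8691 with at least 5 CPM that was at least 3 times higher in animal number 15 than in number 14 in liver, thymus and spleen. RT1 genes have near-identical copies, so reads may be shared, and whether samples of 1 number share a rat is not stated.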
